A study of Mus musculus with 6 samples.

Results

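Nuclear hormone receptors were measured in neurotensin neurons of the mouse lateral septum. The 37 genes came from a list of receptor symbols and not from a cut on their values. The list was made with earlier results of these data known. All 37 were found among the 24946 named genes of the series. Of these, 33 reached the level needed for a test, out of 14859 genes tested. Ppard, Vdr, Esrrb and Nr5a2 did not reach it, and Nr5a2 was at 0 in each library.

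Viral-TRAP reads the RNA held on the ribosomes of chosen cells. Nts-Cre mice (strain C57Bl6J) were injected in the lateral septum with a virus that makes an EGFP-tagged ribosomal protein only where Cre is present. The study's methods name this virus AAV5-Introvert-GFPL10a. Polysomes pulled down with antibodies to EGFP gave the IP group, and tissue RNA kept back before the pull-down gave the Input group. Each group held 3 libraries, 1 for each of 3 pools of 4 to 6 mice whose septa were taken 3 or 4 weeks after injection. All of the animals carried Cre and virus, and a pool hides the spread between its mice. Cre marks cells in which the Nts driver was active, and Input is RNA of the whole tissue, on or off ribosomes, so the share of an RNA under translation enters the ratio as well. A lower ratio therefore cannot tell apart fewer cells of a type in the tagged fraction from less RNA per cell.

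Nuclear receptors are transcription factors that bind DNA through zinc fingers and change the activity of their target genes. Many are switched by small lipid-soluble ligands such as thyroid hormone, retinoic acid, steroids, oxysterols and fatty acids, while orphan receptors have no settled ligand. Many of the receptors for non-steroid ligands bind DNA as partners of a retinoid X receptor. Steroid receptors are held by heat shock protein chaperones until hormone binds.

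Values are normalised counts, that is read counts divided by the authors' DESeq2 factors. About 9350000 to 11040000 reads per library is an estimate, made from the most common lowest step of the values. IP was compared with Input on log2(value + 1) with limma, with p-values adjusted over all 14859 genes. A gene is called higher or lower in IP at an adjusted p under 0.05, and enriched or depleted when the change also exceeds 2-fold. The markers of the septum were present: Nts itself had 2251.1, 3346.1 and 1782.8 normalised counts in the IP libraries, against 80.0, 149.7 and 209.9 in the Input libraries. Of 10 lateral septum markers, 9 were enriched, against 12.6% of all tested genes. The summed level of the 10 was 33658 to 36420 in IP and 7417 to 7601 in Input. Among them, Nts, Sst and Mc3r had been reported as enriched by the study from this experiment, so the list is not an independent check. All tested markers of astrocytes (12 of 12), oligodendrocytes (11 of 11) and microglia (11 of 11) were depleted, but none was at 0 in all IP libraries. The microglia marker Itgam met the level for a test only with the Input libraries counted. With a value of 10 asked in each library, 10 microglia markers were tested and 10 were lower.

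IP and Input differed for most of the receptors. Of the 33 tested, 7 (21.2%) were higher in IP, against 31.4% of all tested genes, and 17 (51.5%) were lower, against 32.2% of all. Only Nr2f6 was enriched (3.03% of members, against 12.6% of all genes), and 7 were depleted (21.2%, against 17.2%). Of these 7, Ppara met the level for a test only through its Input libraries. The median log2 fold change was -0.55 over the receptors and -0.06 over all tested genes. The split between higher and lower depended on scaling: with library size in place of the deposited factors it was 2 higher and 21 lower, with the upper quartile 5 and 19, and with the summed pan-neuronal markers 1 and 25. The median of all tested genes moved too, to -0.54, -0.35 and -0.76 in that order. A change of scaling moves all genes by about the same amount, so it could hardly alter the place of the receptors among all genes. The receptors' median thus lay 0.49 below that of all genes under each of these 4 scalings, which is 1 result and not 4. In each, 10 receptors stood above the median of all genes and 23 below. Among the receptors that passed the test, only Nr4a2 had overlapping IP and Input values. The test itself favours genes without overlap, and the share without overlap over all genes was not counted.

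**Figure D1:**
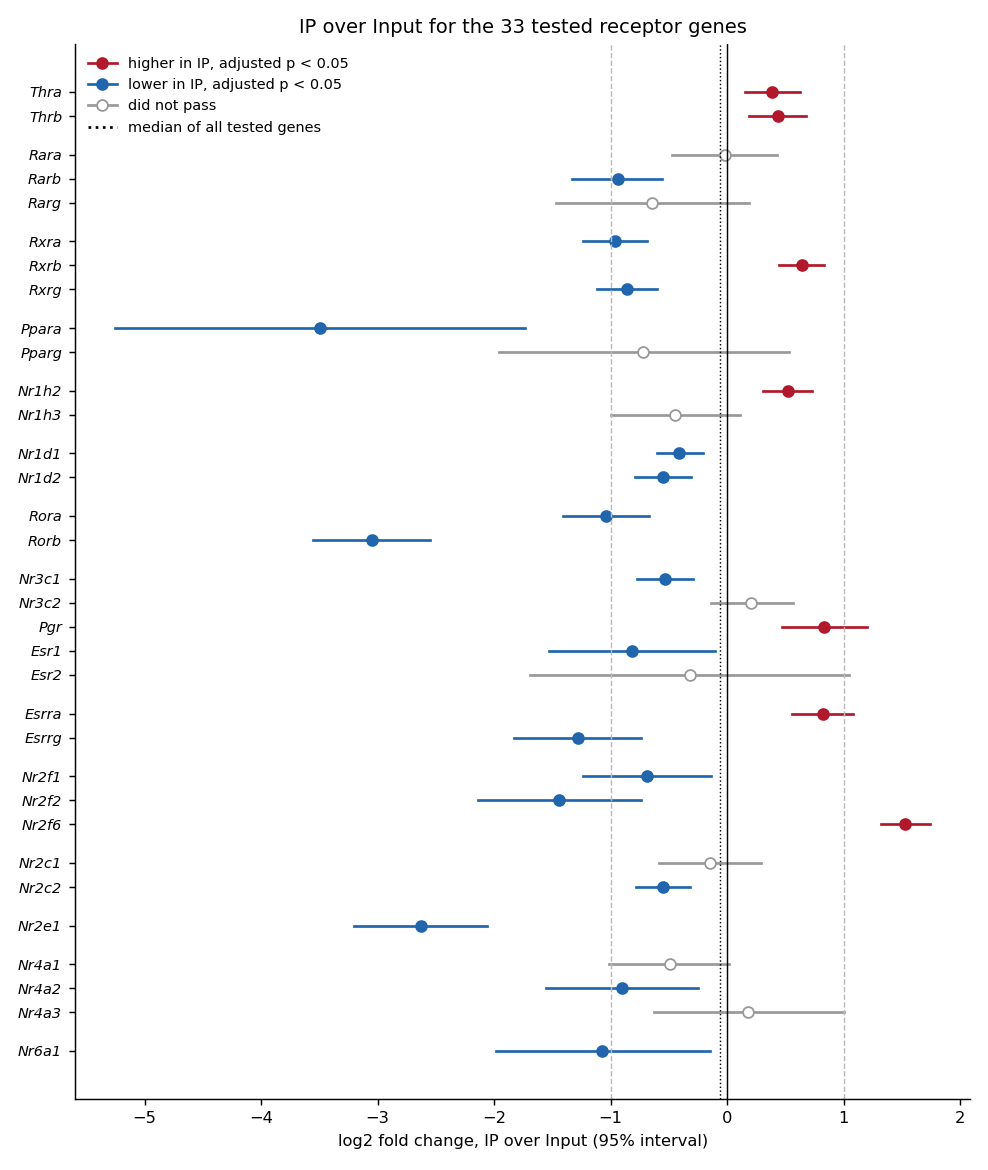
Log2 fold change of IP over Input for the 33 tested receptor genes, grouped by family, with the limma 95% interval as a bar. Red marks genes higher in IP, blue lower and open grey those that did not pass the test. The dotted line is the median of all tested genes (-0.06) and the dashed lines mark 2-fold. Nr2f6 stands farthest to the right at 1.53 and Ppara, Rorb and Nr2e1 farthest to the left.

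The promoters of 3 receptors are shown because the direction and adjusted p of these genes stayed past the threshold under all 20 processing alternatives, and they were chosen after their values were seen. The sequences come from the RefSeq table on GRCm38.p6 and run 5′ to 3′ on the gene's strand, ending before the first exon. Capitals mark matches, on either strand, to the GC box GGGCGG or to the full cyclic AMP response element TGACGTCA.

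Nr2f6 promoter, chr8:71381961-71382202, minus strand: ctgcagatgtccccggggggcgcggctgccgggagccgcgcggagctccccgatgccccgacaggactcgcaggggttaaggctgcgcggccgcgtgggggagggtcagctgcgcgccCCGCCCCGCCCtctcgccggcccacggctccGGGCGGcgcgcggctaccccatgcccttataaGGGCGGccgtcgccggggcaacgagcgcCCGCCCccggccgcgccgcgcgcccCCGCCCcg
Rorb promoter, chr19:19111197-19111446, minus strand: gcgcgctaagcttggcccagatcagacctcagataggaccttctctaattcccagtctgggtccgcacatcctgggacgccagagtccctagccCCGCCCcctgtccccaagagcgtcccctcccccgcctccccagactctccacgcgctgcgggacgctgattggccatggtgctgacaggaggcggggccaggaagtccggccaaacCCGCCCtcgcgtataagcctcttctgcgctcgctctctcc
Nr2e1 promoter, chr10:42583633-42583821, minus strand: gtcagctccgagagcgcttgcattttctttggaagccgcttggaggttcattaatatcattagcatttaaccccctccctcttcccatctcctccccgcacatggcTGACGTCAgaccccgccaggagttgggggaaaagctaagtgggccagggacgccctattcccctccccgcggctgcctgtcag

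The Nr2f6 stretch of 242 bases, 81.8% of them G or C, held 6 GC boxes. The Rorb stretch held 2 GC boxes and the Nr2e1 stretch held 1 TGACGTCA and no GC box. A second Rorb window, at chr19:19001118-19001367, is not shown and held no GC box. None of the 3 stretches shown held the nuclear receptor core motif AGGTCA, the steroid motif AGAACA or the E-box CACGTG. Over the bases upstream of each start, GGGCGG occurred in 47.3% of the 55 windows of 35 receptor genes, against 32.7% of 32851 windows of all genes. AGGTCA occurred in 16.4% against 14.0%, TGACGTCA in 1.82% against 1.55%, CACGTG in 5.45% against 6.02% and AGAACA in 7.27% against 16.1%. These are matches of letters and not sites. Several windows can belong to 1 gene and can overlap, as for Rara, and Thra and Nr3c1 were not among the 35 genes.

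The COUP transcription factors, orphan receptors known as regulators of neuronal and vascular development, split within their family. Nr2f6 (EAR2; ENSMUSG00000002393.14, chr8:71374123-71381960 on mm10) had 3507.9, 2899.8 and 3019.7 normalised counts in the IP libraries, against 1045.3, 1099.8 and 1101.5 in the Input libraries. All 3 IP values stood above all 3 Input values, and the fold was 2.89 (log2 1.53, standard error 0.10, limma adjusted p = 7.21e-08). Under the pan-neuronal scaling its log2 fold change was 0.83, still past the adjusted p threshold but under 2-fold. Ocel1, on the opposite strand, shares 54.4% of the exon bases of Nr2f6, and whether the counting used strand is not given in the sources used here. Ocel1 itself had 77.8 to 89.5 normalised counts in IP and 54.9 to 95.3 in Input, with a log2 fold change of 0.14. Nr2f2 (COUP-TFII, a regulator of interneuron development; chr7:70351944-70366735) was depleted, with 48.7, 54.5 and 30.7 in IP, against 85.5, 118.7 and 166.9 in Input (log2 -1.44, limma adjusted p = 0.00182). B130024G19Rik shares 7.46% of its exon bases on the opposite strand and was at 0 in IP. Nr2f1 (COUP-TFI, a regulator of cortical patterning) was lower at log2 -0.69, a call lost in 6 of the 9 fits that left out a library or pool. In each of the pools Nr2f6 had a higher ratio than its relatives, by 1.91 to 2.59 over Nr2f1 and 2.51 to 3.85 over Nr2f2 on the log2 scale. With 3 pools the smallest two-sided exact sign-flip p is 0.25, so such orders within a family are given as values without a test.

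**Figure D2:**
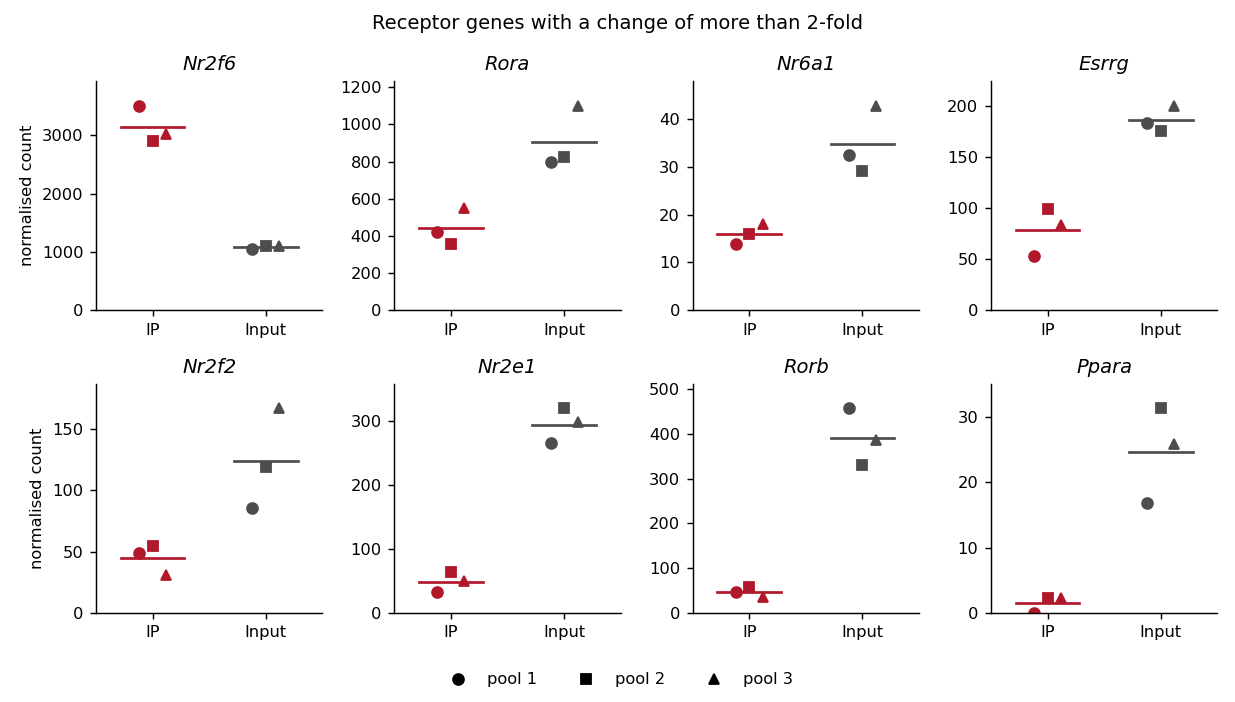
Normalised counts of the 8 receptor genes that changed more than 2-fold, with IP at the left and Input at the right of each panel. Points are the 3 pools, marked by shape, lines are group means, and each panel has its own axis from 0. The IP and Input points do not overlap in any of the panels, whose genes were picked by the test of that difference.

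The RORs bind DNA as monomers. Rorb (ENSMUSG00000036192.15, chr19:18930605-19111196), known from retina and from cortical layers, had 47.6, 57.6 and 35.7 normalised counts in IP, against 457.5, 331.1 and 386.7 in Input. It was lower 8.27-fold (log2 -3.05, standard error 0.23, limma adjusted p = 2.45e-07). Rora (chr9:68653786-69388246), known for its role in cerebellar Purkinje cells and the clock, had 422.1, 355.5 and 552.0 in IP, against 796.5, 826.0 and 1101.3 in Input, a log2 fold change of -1.04. Rora passed by a narrow margin of fold, and the ratio of Rora stood above that of Rorb in each pool, by 1.29 to 2.40. Nr2e1 (tailless; ENSMUSG00000019803.11, chr10:42561963-42583632), an orphan receptor of neural stem cells, had 31.8, 64.5 and 49.3 in IP, against 265.4, 320.5 and 298.6 in Input (log2 -2.63, limma adjusted p = 2.32e-06). Its IP values were all lower than its lowest Input value.

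These depletions stood beside those of the glial markers. The 12 astrocyte markers, from Gfap to Fgfr3, had a median log2 fold change of -2.37, and their summed level was 9635 to 14461 in IP and 42017 to 50141 in Input. The oligodendrocyte markers summed to 14604 to 23194 in IP and 105711 to 151055 in Input, with a median of -2.59. Those of microglia summed to 804 to 1456 in IP and 4309 to 6495 in Input, with a median of -2.62. The 8 glutamatergic markers (summed 5359 to 7278 in IP and 10218 to 17099 in Input) had a median of -1.03. What part such cells had in the receptor values was not tested.

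Of the PPARs, fatty acid sensors of lipid metabolism, Ppara (chr15:85734983-85802819) met the level for a test only through Input, the group where it was high, so its call is given as a description. It had 0, 2.32 and 2.28 normalised counts in IP, against 16.8, 31.4 and 25.9 in Input. An IP value of 2.24 to 2.30 is estimated to be about 1 read. The log2 fold change on the value + 1 scale was -3.49, with a wide 95% interval of -5.25 to -1.73. Pparg had 10.1 to 32.2 in IP and 14.9 to 50.8 in Input and did not pass (log2 -0.72, limma adjusted p = 0.289). Ppard, at 4.63 to 15.5 in IP and no higher than that in Input, was too low to be tested. The estrogen-related receptors, orphan relatives of the estrogen receptors that regulate energy metabolism, split as the COUP factors did. Esrra was higher at log2 0.82 and Esrrg (chr1:187608791-188214885) was depleted, with 52.8, 99.3 and 83.7 in IP, against 184.2, 175.9 and 200.9 in Input (log2 -1.28). Esrra exceeded Esrrg by 1.34 to 2.92 in the pools, though its own call was lost under the pan-neuronal scaling (log2 0.12). Trmt112, on the opposite strand with 1.66% of the exon bases of Esrra, had a log2 fold change of 1.38.

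**Figure D3:**
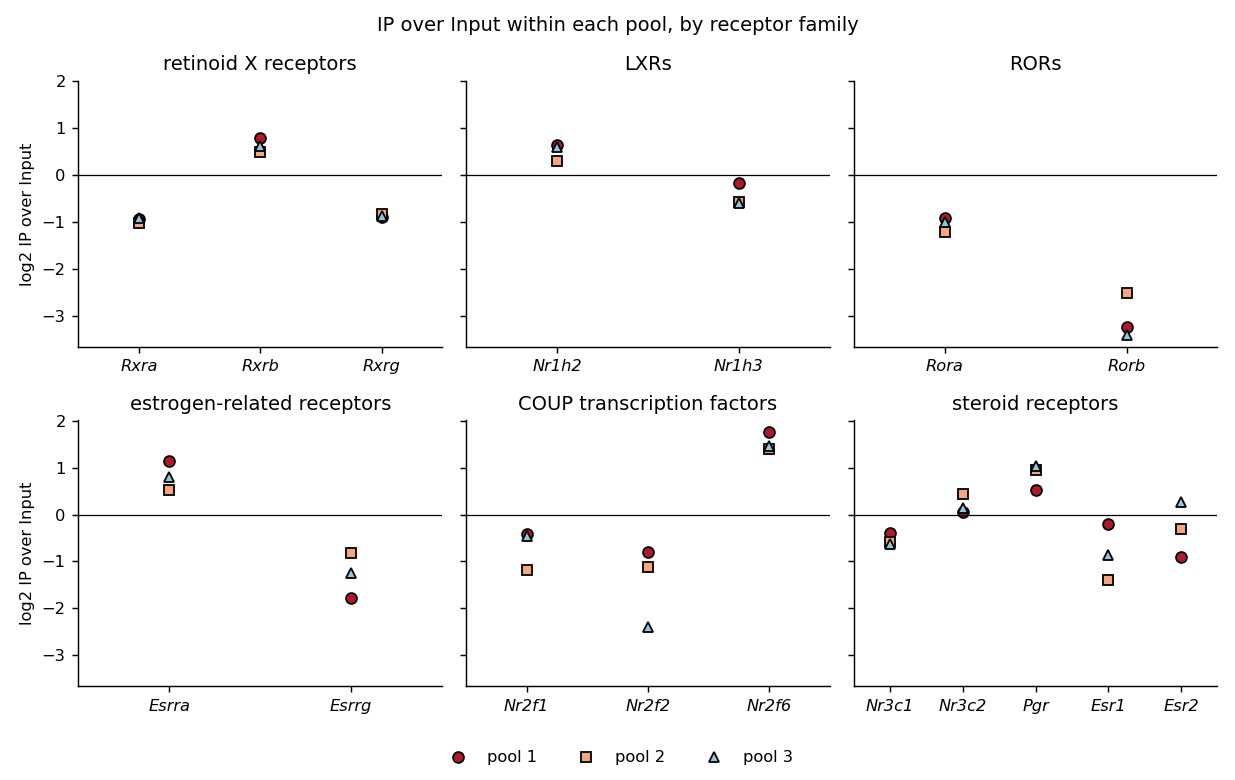
Log2 ratio of IP over Input within each of the 3 pools for 6 receptor families, with the pools marked by shape and colour and a line at 0. In each pool Rxrb stands above Rxra and Rxrg, Esrra above Esrrg and Nr2f6 above its relatives.

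Levels were compared between genes per kilobase of the longest transcript. The 4 highest receptors in the mean of IP and Input were Thra, Rxrg, Rxrb and Nr1h2. Thra, a thyroid hormone receptor, led in both groups with 3287.7 ± 152.8 normalised counts per kb in IP and 2525.6 ± 409.7 in Input (SD, n = 3 pools each). Its libraries held 8151.7, 8382.5 and 7649.9 normalised counts in IP, against 7041.4, 6453.2 and 5083.7 in Input, so the groups did not overlap (log2 0.39, limma adjusted p = 0.00815). Thrb, the other thyroid hormone receptor, was higher by a like amount (log2 0.44), with 1041.9 to 1241.8 in IP and 804.2 to 942.2 in Input. Both calls were lost without pool 3, and the direction of both turned under scaling to library size (-0.09 for Thra and -0.05 for Thrb). Thra and Nr1d1 lie on opposite strands and share 263 exon bases, so reads from one may count for the other.

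**Figure D4:**
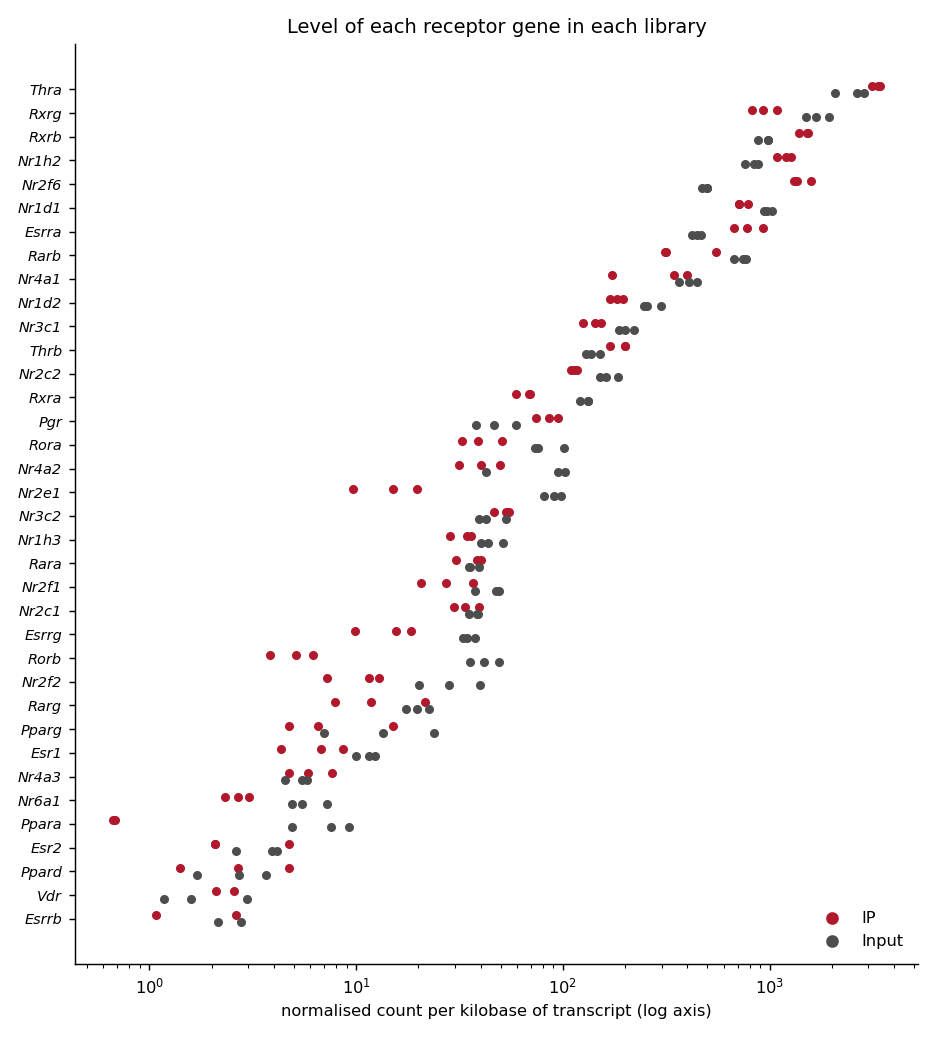
Normalised counts per kilobase of transcript for each receptor gene in each library, on a log axis, with IP in red and Input in grey. Genes are ordered by the mean of both groups, from Thra at the top. Values of 0, and Nr5a2, which was at 0 throughout, cannot be drawn.

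The retinoid X receptors are partners of many other receptors. Rxrb had 4007.0, 3648.9 and 3986.6 normalised counts in IP, against 2318.3, 2576.2 and 2575.4 in Input (log2 0.64, limma adjusted p = 3.66e-05), and Rxrg had 1726.9, 2285.0 and 1950.9 in IP, against 3176.0, 4063.5 and 3552.4 in Input (log2 -0.86). The order of these 2 genes thus differed: Rxrb was at 1477.3 per kb and Rxrg at 942.0 per kb in IP, while in Input Rxrb was at 947.8 and Rxrg at 1704.9. Rxra was also lower (log2 -0.96), and Rxrb exceeded it by 1.52 to 1.73 in the pools. The call of Rxrb was lost under library size scaling, and under the pan-neuronal scaling its value turned to -0.07. Nr1h2 (LXR beta, an oxysterol sensor) had 2395.4, 2173.2 and 2539.8 in IP, against 1525.7, 1763.3 and 1676.3 in Input (log2 0.52, limma adjusted p = 5.04e-04), which lost its call under library size scaling and turned to -0.19 under the pan-neuronal one. Its relative Nr1h3 (LXR alpha) did not pass, with 55.8 to 70.0 in IP and 78.3 to 100.6 in Input. Of the retinoic acid receptors, Rarb was lower (970.0 to 1713.8 in IP and 2094.3 to 2388.6 in Input, log2 -0.94), and 34.1% of its exon bases are shared with Top2b (log2 -0.34) on the opposite strand, while Rara (log2 -0.02) and Rarg (log2 -0.64) did not pass.

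Of the steroid receptors, only Pgr, the progesterone receptor, was higher, with 507.8 to 648.9 normalised counts in IP and 262.9 to 409.7 in Input (log2 0.83, limma adjusted p = 8.81e-04). Its call was lost under library size and pan-neuronal scaling, where the value stayed above 0 (0.13 at the least). The glucocorticoid receptor Nr3c1 was lower (807.4 to 986.6 in IP and 1207.9 to 1418.7 in Input, log2 -0.53), a call that ended when the trend with transcript length was removed (log2 -0.05). The mineralocorticoid receptor Nr3c2, which binds the same hormones with higher affinity, had 274.7 to 325.1 in IP and 231.5 to 313.6 in Input and did not pass (log2 0.21). Its ratio exceeded that of Nr3c1 by 0.44 to 1.02 in the pools. The estrogen receptor Esr1 was lower at 27.4 to 55.0 in IP and 63.3 to 78.6 in Input (log2 -0.82, limma adjusted p = 0.0444), a call lost in 7 of the 9 fits that left out a library or pool. Esr2 stayed near the floor of testing, at 6.98 to 16.0 in IP and 8.86 to 14.0 in Input.

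The REV-ERBs, heme-binding repressors of the clock, were both lower: Nr1d1 at log2 -0.41 and Nr1d2 at log2 -0.55. Of the testicular receptors, Nr2c2 was lower (log2 -0.55) and Nr2c1 did not pass (log2 -0.15). Mrps25, whose log2 fold change was 1.08, shares 30.7% of the exon bases of Nr2c2 on the opposite strand. Among the NR4A receptors, immediate early genes induced by activity, Nr4a2 was lower (log2 -0.90), with 112.3 to 177.4 in IP and 151.6 to 366.5 in Input. The call of Nr4a2 was lost in 5 of the 9 fits that left out a library or pool. Nr4a1 had 439.7, 1017.3 and 882.0 in IP, where pool 1 stood apart, against 934.7, 1137.7 and 1037.1 in Input, and it did not pass (limma adjusted p = 0.0847), though it did with the pools as a block (limma adjusted p = 0.00878). Nr4a3, at 27.1 to 43.6 in IP and no less than 25.9 in Input, did not pass. Nr6a1 (germ cell nuclear factor; chr2:38723370-38927688) had 13.8, 16.0 and 18.1 in IP, against 32.5, 29.2 and 42.8 in Input (log2 -1.07, limma adjusted p = 0.0416, and 0.0584 with the pools as a block), and its call was lost in 8 of the 9 fits that left out a library or pool. Vdr and Esrrb stayed under 13 in each library.

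Transcript length moved with the ratio. Over all tested genes the median log2 fold change was 1.24 for transcripts under 1 kb, 0.63 from 1 to 2 kb, -0.03 from 2 to 4 kb, -0.50 from 4 to 8 kb and -0.53 above that. The 17 receptors of 2 to 4 kb had a median of -0.49 and the 12 of 4 to 8 kb one of -0.55. With the trend removed, Thra, Nr1h2, Nr1d2, Nr3c1, Esr1, Nr2f1, Nr2c2, Nr4a2 and Nr6a1 no longer passed, while Nr1h3 (log2 -0.83) and Nr3c2 (log2 0.68) did. Rora (log2 -0.49) and Esrrg (log2 -0.83) still passed but by less than 2-fold. Rxrg (log2 -1.17) was then depleted and Pgr (log2 1.32) enriched, and Thrb rose to log2 0.91. What part length had in these values was otherwise not tested.

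The partners of the receptors were read from lists chosen with earlier results known. Of 24 coregulators, 4 were higher and 15 lower in IP, with a median log2 fold change of -0.67, where 31.4% of all genes were higher and 32.2% lower. With library size, upper quartile and pan-neuronal scaling, 0 were higher and 21, 19 and 22 lower in that order. The shares of all genes just given hold for the deposited factors only. Under these 3 scalings the coregulator median was -1.15, -0.96 and -1.37, beside -0.54, -0.35 and -0.76 for all genes. With the length trend removed 4 coregulators were higher and 9 lower, with a median of -0.26. Hdac3, the deacetylase of the corepressor complex, was higher (log2 0.25), but its direction turned under library size (-0.23), upper quartile (-0.04) and pan-neuronal scaling (-0.46) and with the length trend removed (-0.10), and its call was lost in 6 of the 9 fits that left out a library or pool. Hr, a corepressor of thyroid hormone receptors, was depleted (log2 -3.24). Its spread in IP was wide, at 44.7 ± 35.5 normalised counts, against 299.9 ± 70.6 in Input (SD, n = 3 pools each). Hr met the level for a test only with the Input libraries counted, so its call is given as a description. With a value of 10 asked in each library, 23 coregulators were tested, with 4 higher and 14 lower. Of 13 chaperones, 11 were higher and none lower, against 31.4% and 32.2% of all genes, with a median of 0.52, against -0.06 for all genes. Hspa8 was highest at 60450.3 ± 3872.3 normalised counts in IP and 43983.7 ± 1066.7 in Input (SD, n = 3 pools each). Its log2 fold change of 0.46 turned to -0.03 under library size and -0.25 under pan-neuronal scaling. Ptges3, the p23 cochaperone, was enriched at log2 1.00, but not with the length trend removed. The chaperones had 4 higher and 2 lower calls under library size scaling, 9 higher and 2 lower under the upper quartile, and 2 higher and 5 lower under the pan-neuronal scaling. Their medians were 0.04, 0.23 and -0.18 in that order, beside -0.54, -0.35 and -0.76 for all genes.

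**Figure D5:**
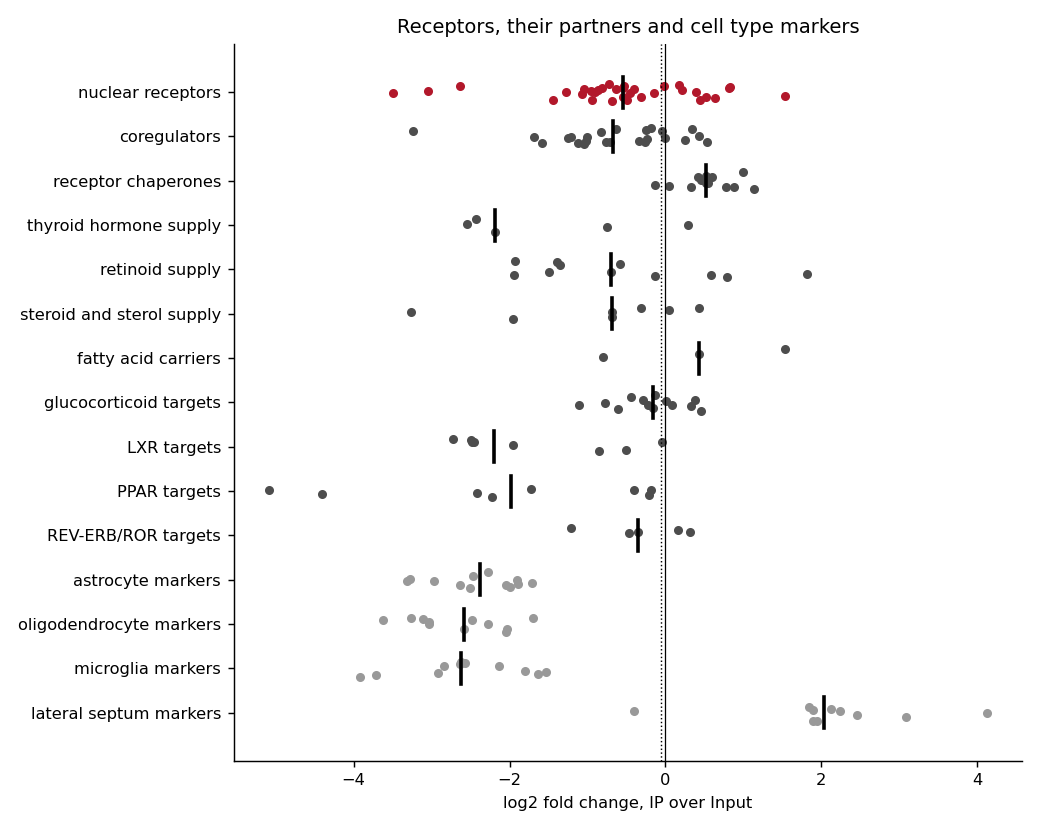
Log2 fold change of IP over Input for the receptors, for lists of their partners, ligand supply and targets, and for cell type markers. Each point is a tested gene, short bars are list medians and the dotted line is the median of all genes. Chaperones lie mostly right of 0, while the medians of LXR targets (-2.21) and PPAR targets (-1.98, or -1.07 with a value of 10 asked in each library) lie to the left.

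Counts of the genes that supply ligands stand beside 31.4% higher and 32.2% lower among all genes. Of 5 thyroid supply genes, 4 were lower, among them Slco1c1, a thyroxine transporter (log2 -2.54), and Dio2, which activates thyroxine (log2 -2.43). Of 11 retinoid supply genes, 2 were higher and 6 lower. Rbp4, the retinol carrier, was enriched at 1402.7 ± 131.7 in IP and 399.1 ± 74.1 in Input (SD, n = 3 pools each), but not with the length trend removed. Of 7 steroid and sterol genes, 1 was higher and 3 were lower. Cyp27a1, the farthest at log2 -3.27, had 12.1 ± 7.8 normalised counts in IP and 111.3 ± 29.2 in Input (SD, n = 3 pools each). It met the level for a test only with the Input libraries counted, so its call is given as a description. With a value of 10 asked in each library, 6 of the genes were tested, with 1 higher and 3 lower. The higher one was Cyp46a1, which makes 24-hydroxycholesterol (log2 0.43), whose direction turned under library size (-0.06) and pan-neuronal scaling (-0.28) and whose call was also lost with the upper quartile and with the length trend removed. Of the 3 fatty acid carriers, Fabp3 was enriched (log2 1.53), but not with the length trend removed. Fabp5 was higher (log2 0.43), but turned to -0.05 under library size and -0.27 under pan-neuronal scaling, and was lower at -0.57 with the length trend removed. Fabp7, an astrocyte and progenitor form, was lower (log2 -0.80).

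Counts of target genes are read against the same shares of all genes. Of 8 LXR targets, none was higher and 7 were lower, with Apoe at log2 -2.72 and Scd1 at -2.49. Of 8 PPAR targets, none was higher and 6 were lower, with a median of -1.98. With a value of 10 asked in each library, 6 of them were tested, 4 were lower and the median was -1.07. Pdk4 had 0, 4.58 and 11.4 normalised counts in IP, against 127.4, 118.2 and 172.7 in Input, and Cpt1a had 13.7, 36.8 and 2.25 in IP, against 240.4, 237.4 and 297.9 in Input, so both met the stated level only with the Input libraries counted. Of 13 glucocorticoid targets, 2 were higher and 4 lower (Sgk1 at -1.11), near the shares of all genes for the lower calls. Under library size, upper quartile and pan-neuronal scaling 0 were higher and 10, 9 and 11 lower in that order. The medians of these targets were then -0.64, -0.45 and -0.86, near those of all genes at -0.54, -0.35 and -0.76. Tsc22d3 was higher at log2 0.33, but turned to -0.15 under library size and -0.37 under pan-neuronal scaling and to -0.04 with the length trend removed. Of 5 REV-ERB and ROR targets, 1 was higher and 2 were lower (Npas2 at -1.21). The higher one, Cry1 (log2 0.31), turned to -0.17 under library size and -0.40 under pan-neuronal scaling and lost its call in 7 of the 9 fits that left out a library or pool. The glial marker values given above stood beside these too, and their part in the target values was not tested.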

How the data were processed

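RNA of the lateral septum was measured in 3 IP and 3 Input libraries. The authors deposited signal values, which are counts divided by DESeq2 factors and not logged, and their processing notes name STAR, DESeq2 and mm10. Counter, annotation and strand setting: not given in the sources used here. Whole reads could not be recovered (45.8% to 71.1% of low values lay within 0.05 read of a whole number), so no count test was run. 26 entries with dates for symbols (0.188% to 0.32% of a library) were left out.

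A value of 1 was added, log2 taken, and the groups compared in limma 3.58.1 (R 4.3.3) for genes at 10 or more in at least 3 libraries, with Benjamini-Hochberg adjustment. The code was tested on simulated data, but the bar for recovered changes was lowered after the first result was seen. Replicate numbers mark pools, so they pair the libraries: deviations correlated at 0.095 to 0.109 within pools and at -0.083 to -0.013 between them. The study's methods give no such term, so the pool as a block was an alternative, as were other scalings, filters, pseudocounts and left-out libraries. Coordinates and lengths come from GENCODE M21 on mm10.

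Members and lists were chosen with earlier results of these data known. Per-library values are given for each enriched or depleted receptor and for the 4 highest per kb. From each related list the rule takes the 2 highest and 2 most changed genes, of which some are printed. The level was read as the value per kb, and for receptors as the mean of IP and Input; these readings were settled after the files were seen. Some genes of the related lists are not reported here.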

Additional observations from a re-analysis of the deposited data

How the results depend on the processing

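Nr2f6, Rorb and Nr2e1 kept their direction and side of the adjusted p threshold in all 20 alternatives. With library size, 2 receptors were higher and 17 depleted; over all genes 2577 were higher, 7886 lower, 671 enriched and 4554 depleted, and of the related genes 6 were higher and 2 enriched. With the upper quartile, 12 receptors were depleted, 1062 of all genes enriched, and 11 related genes higher with 2 enriched. On the summed pan-neuronal markers, 1 receptor was higher, 0 enriched and 21 depleted; over all genes 1688 were higher, 9179 lower, 390 enriched and 5800 depleted, and of the related genes 4 were higher, 78 lower, 1 enriched and 51 depleted. The direction turned for Thra and Thrb under library size (-0.09 and -0.05) and pan-neuronal scaling (-0.31 and -0.27), and under the last for Rxrb (-0.07), Nr1h2 (-0.19) and the uncalled Nr3c2 (-0.49). Removing the length trend left 11 receptors lower and 2 enriched, with 928 of all genes and 0 related genes enriched. The limma treat test against 2-fold, which asks for a larger change by its construction, gave 1 receptor higher and 3 lower or depleted, 743 and 790 over all genes, and 2 and 18 of the related genes. Leaving out libraries or pools gave 5 to 7 receptors higher, 13 to 16 lower, 1 to 2 enriched (2 without Input replicate 1) and 6 to 8 depleted. The replicate block gave 7 higher and 17 lower receptors; Nr6a1 lost its call and Nr4a1 gained one, and it changed no other receptor's call. Other than by construction, the cause of these shifts was not tested. Receptors near a value of 10 rest on few reads. The added value of 1 shrinks ratios there, and whether the changes are understated or overstated was not tested.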
